A study of Mus musculus with 12 samples.

Results

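Described here are 10 genes of the cell cycle engine, 7 cyclins and 3 cyclin-dependent kinases, in mouse embryonic fibroblasts (MEFs, grown in culture from embryos) exposed to a DNA-damaging drug. They were chosen by name: the D cyclins Ccnd1, Ccnd2 and Ccnd3 (listed as CCND1, CCND2 and CCND3) with the kinase Cdk4 (CDK4), the E cyclins Ccne1 and Ccne2 (CCNE1, CCNE2) with Cdk2 (CDK2), and Ccna2 and Ccnb1 (CCNA2, CCNB1) with Cdk1 (CDK1). All 10 were found among the 16425 genes of the deposited table, and all 10 passed the filter on low values that left 14440 genes for testing. The MEFs were wild type and carried 1 of 2 guide RNAs, one against the p53 response element of Pvt1 (called the p53RE guide here; cells labelled Mefs sg10) and the other a non-targeting control (Mefs sgtom). All 6 libraries analysed, 3 replicates with each guide, came from cells kept in 0.5 µM doxorubicin for 24 h. Untreated cells, 6 further samples, were not analysed here, so no level can be compared with that before the drug. The labels do not say whether the cells with a guide were a pool or a clone, or whether replicates were separate embryos or cultures, so the p-values measure only the spread between these libraries, which may be technical.

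A cyclin binds and switches on a cyclin-dependent kinase, and the order in which cyclins appear drives the cell from one phase to the next. D cyclins with Cdk4 respond to growth signals in G1 and phosphorylate the retinoblastoma protein, cyclin E with Cdk2 starts DNA replication, cyclin A2 acts through S phase and G2, and cyclin B1 with Cdk1 starts mitosis. DNA damage halts this cycle through p53, whose target Cdkn1a encodes p21, an inhibitor of cyclin-kinase complexes. The growth-promoting transcription factor Myc, whose gene lies next to Pvt1, binds the E-box CACGTG together with its partner Max, and Cdk4 and Ccnd2 are among its described targets.

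The promoters of a G1 kinase and of the mitotic kinase are shown because they carry different regulatory motifs. They come from the RefSeq promoter table (GRCm38.p6), which held 6 of the 10 genes: Ccnb1, Ccnd3, Ccne1, Cdk1, Cdk2 and Cdk4. Motifs were searched on both strands of the 250 bases before each RefSeq start, and the stretches printed end at the base before the annotated gene start. Capitals mark CACGTG in the first sequence (chr10:127063285-127063533, plus strand). In the second (chr10:69352939-69353162, minus strand, read 5′ to 3′) they mark the E2F motif TTTCGCGC, the cell cycle homology motif TTTGAA, and ATTGG, which is CCAAT on the opposite strand.
Cdk4: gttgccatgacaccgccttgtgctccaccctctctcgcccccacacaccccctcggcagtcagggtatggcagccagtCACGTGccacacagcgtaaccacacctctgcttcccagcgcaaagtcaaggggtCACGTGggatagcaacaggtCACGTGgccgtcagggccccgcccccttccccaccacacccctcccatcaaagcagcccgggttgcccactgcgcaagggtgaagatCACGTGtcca
Cdk1: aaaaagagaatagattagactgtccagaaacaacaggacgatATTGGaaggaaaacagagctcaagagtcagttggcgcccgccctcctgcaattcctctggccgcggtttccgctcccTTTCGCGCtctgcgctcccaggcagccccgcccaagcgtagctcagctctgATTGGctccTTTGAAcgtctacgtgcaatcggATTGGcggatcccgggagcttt

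CACGTG was found 4 times before Cdk4, starting 172, 118, 98 and 11 bases ahead of the RefSeq start, and in none of the other 5 promoters. Of 32851 promoter windows of this length, 6.02% held CACGTG at least once and 7 windows, of 5 genes, held it 4 times or more. TTTGAA, the element bound by the repressor complex that acts downstream of p53 and p21, was found in the Cdk1 window alone among the 6 and in 5252 of the 32851 windows. Cdk1 held it 71 and 15 bases ahead of its RefSeq start, the latter beyond the stretch printed. CCAAT, which NF-Y binds, was found 3 times before Cdk1, 2 times before Ccnb1 and once before Cdk2 and Ccnd3, against 33.9% of all windows with at least 1. The Ccnd3 match lay before another RefSeq start inside the gene, and the window at the annotated gene start held no match. The Ccnb1 match 67 bases ahead of its RefSeq start lay inside the annotated gene. TTTCGCGC was found before Cdk1 and in 0.256% of windows, and TTTCCCGC before Cdk2, on the opposite strand, and in 0.895%. The other E2F motifs searched, TTTGGCGC (0.417%) and TTTGCCGC (0.338%), were found in none of the 6. No match overlapped that of another motif. These are matches of letters and were not tested as binding sites.

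The libraries held 50091418 to 66132317 reads in genes, and levels are given in CPM, read counts that the authors had scaled so that libraries of different depth compare. The targeted locus moved with the labels. The control and p53RE libraries averaged 13.4 ± 2.61 and 6.46 ± 1.40 CPM of Pvt1, and 30.4 ± 4.55 and 48.6 ± 5.16 CPM of Myc (SD, n = 3 each). Libraries of the 2 guides with equal replicate numbers resembled each other across genes. Each member therefore has its mean log2 difference and an interval within the 3 pairs, taken from limma with the replicate number as a block. Genes of the related lists have the mean difference only. In limma with the replicate number as a block Pvt1 fell (log2 difference −0.999, adjusted p = 1.40e-04) and Myc rose (0.67, adjusted p = 5.49e-04), and without the block neither passed (adjusted p = 1.0 for both).

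No cyclin or kinase of the set passed the test for a difference between the guides. On the log2(CPM + 0.5) scale, used for all counts of higher and lower genes here, the means of 5 were higher and of 5 lower with the p53RE guide, with a median log2 difference of 0.00440 against −0.000399 over all tested genes. Limma called 0 of the 10 without the block, where it called 0 of 14440 genes (0%), and 0 of 10 with the block, where it called 5 genes (0.0346%). At an unadjusted p under 0.05 it also held 0 of the 10 in either fit, against 50 and 965 of all genes, and edgeR and DESeq2 called none of the 10. The 2 groups overlapped for all 10 genes, where 3.61% of tested genes had no overlap. Cdk4 was the single member higher in 3 of 3 pairs, which 14.4% of genes were, and no member was lower in 3 of 3 pairs, which also 14.4% of genes were.

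Of the D cyclins, which carry growth signals into the cycle, Ccnd1 and Ccnd2 had the highest levels of the set in CPM per kilobase of exon. Ccnd1 stood at 1131, 784 and 1048 CPM in control replicates 1, 2 and 3, and at 1108, 849 and 1059 CPM in the p53RE replicates. Replicate 2 was the lowest with both guides, and the groups overlapped almost fully. The control mean was 988 ± 181 CPM and the p53RE mean 1005 ± 137 CPM (SD, n = 3 each). The log2 difference was 0.03, with an SE of 0.170 in limma without the block (adjusted p = 1.0) and 0.0363 with it (adjusted p = 0.899). Within pairs the 95% interval of that difference ran from −0.05 to 0.11, that is from 0.969 to 1.08 times the control level.

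Ccnd2, the D cyclin described as a direct Myc target, was level across the libraries. It stood at 1250, 1261 and 1219 CPM in the control replicates and at 1217, 1319 and 1254 CPM in the p53RE replicates. Its highest value was 1.08 times its lowest, against 1.44 times for Ccnd1. The log2 difference was 0.02, with an interval within pairs of −0.05 to 0.10, while Myc in the same libraries stood at 1.60 times its control mean. Ccnd3 stood at 158, 178 and 190 CPM and at 156, 182 and 186 CPM, so that replicate 1 was lowest and replicate 3 highest with both guides. Its log2 difference was −0.00, with an interval within pairs of −0.07 to 0.07.

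Cdk4, the kinase partner of the D cyclins, came nearest to a difference. It stood at 163, 183 and 173 CPM in the control replicates and at 169, 208 and 174 CPM in the p53RE replicates. Each p53RE library was above its partner, at 1.03, 1.14 and 1.01 times its level, and the gap in replicate 2 was the widest. The groups still overlapped, with means of 173 ± 9.92 and 184 ± 21.5 CPM (SD, n = 3 each). The log2 difference of 0.08 did not pass in limma without the block (SE 0.0966, adjusted p = 1.0) or with it (SE 0.0383, adjusted p = 0.738, unadjusted p = 0.0503). Its interval with the block ran from −0.000140 to 0.17. Without p53RE replicate 2, but with its control partner kept, the difference in the fit without the block was −0.01. That was the 1 reversal of sign among 24 alternative runs for Cdk4. With the block and a whole pair left out, the difference stayed above 0, at 0.102, 0.0317 and 0.118 without replicate 1, 2 or 3. Cdk4 shares 641 exon bases with Tspan31 on the opposite strand, and the strand setting of the counting is not given in the sources used here, so reads of the pair may not be separated. Tspan31 stood at 134 to 147 CPM over the 6 libraries with a log2 difference of −0.01.

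Cyclin E with Cdk2 triggers the start of DNA synthesis, and all 3 genes stood below the D cyclins in CPM per kilobase of exon. Ccne1 stood at 8.93, 10.5 and 10.5 CPM in the control replicates and at 8.37, 11.2 and 11.1 CPM in the p53RE replicates. Replicate 1 was the lowest with both guides. The log2 difference was 0.03 (SE 0.139 without the block), with an interval within pairs of −0.13 to 0.18. Ccne2 stood at 5.57, 5.80 and 6.79 CPM and at 5.70, 4.85 and 7.86 CPM, with replicate 3 the highest in both groups. Its 3 pairs disagreed in direction, with log2 differences of 0.03, −0.23 and 0.20. Their mean was −0.00243, with an interval within pairs of −0.21 to 0.20. Cdk2, the kinase of both E cyclins, was steadier, at 12.1, 10.5 and 11.7 CPM and at 11.7, 11.4 and 11.5 CPM. Its log2 difference was 0.01, with an interval within pairs of −0.14 to 0.16.

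The cyclins of S phase, G2 and mitosis varied most between libraries. Ccna2, the cyclin of replication and G2, stood at 1.58, 2.93 and 4.07 CPM in the control replicates and at 1.90, 2.26 and 3.97 CPM in the p53RE replicates. Replicate 1 was lowest and replicate 3 highest with both guides, and the highest value was 2.58 times the lowest. These values rested on 91 to 289 reads, and the 95% Poisson interval of the lowest ran from 1.27 to 1.93 CPM. Counting intervals cover counting error only, since PCR copies were not marked. The log2 difference between guides was −0.04 (SE 0.354 without the block), with an interval of −0.30 to 0.21 within pairs.

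Ccnb1, the cyclin that starts mitosis, had the same low replicate 1. It stood at 2.30, 6.04 and 5.68 CPM in the control replicates and at 2.80, 4.48 and 6.27 CPM in the p53RE replicates, from 133 to 456 reads. The p53RE library was 1.21, 0.741 and 1.10 times its partner in pairs 1, 2 and 3, so the pairs disagreed in direction. In pair 2 the counting intervals did not meet, at 5.43 to 6.70 CPM in the control and 3.94 to 5.07 CPM in the p53RE library. The log2 difference over all pairs was −0.01 (SE 0.403 without the block), with an interval of −0.28 to 0.26 within pairs. Ccnb1 has 5 pseudogenes with at least 95% identity over at least 200 bases, the closest 99.2% identical over 1287 bases. None of the 5 is among the genes of the table. How the authors' counting treated reads shared with them is not given, so it could have split or dropped reads of Ccnb1.

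Cdk1, the kinase of cyclin B1 and cyclin A2 in mitosis, spanned a narrower range than its cyclins. It stood at 7.43, 7.81 and 8.27 CPM in the control replicates and at 7.46, 7.49 and 7.74 CPM in the p53RE replicates, a span of 1.11 times from lowest to highest. Replicate 1 was lowest and replicate 3 highest with both guides, the same order as for Ccna2. The log2 difference was −0.05 (SE 0.0838 without the block), with an interval within pairs of −0.21 to 0.12. The ratio of Ccnb1 to Cdk1 CPM within a library was 0.310, 0.773 and 0.687 in the control replicates and 0.374, 0.598 and 0.810 in the p53RE replicates. The ratio of Ccna2 to Cdk1 CPM was 0.212, 0.376 and 0.492, and 0.255, 0.301 and 0.513. Both ratios were lowest in replicate 1 with either guide. Since Cdk1 spanned only 1.11 times, they largely restate the levels of Ccnb1 and Ccna2.

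**Figure D1:**
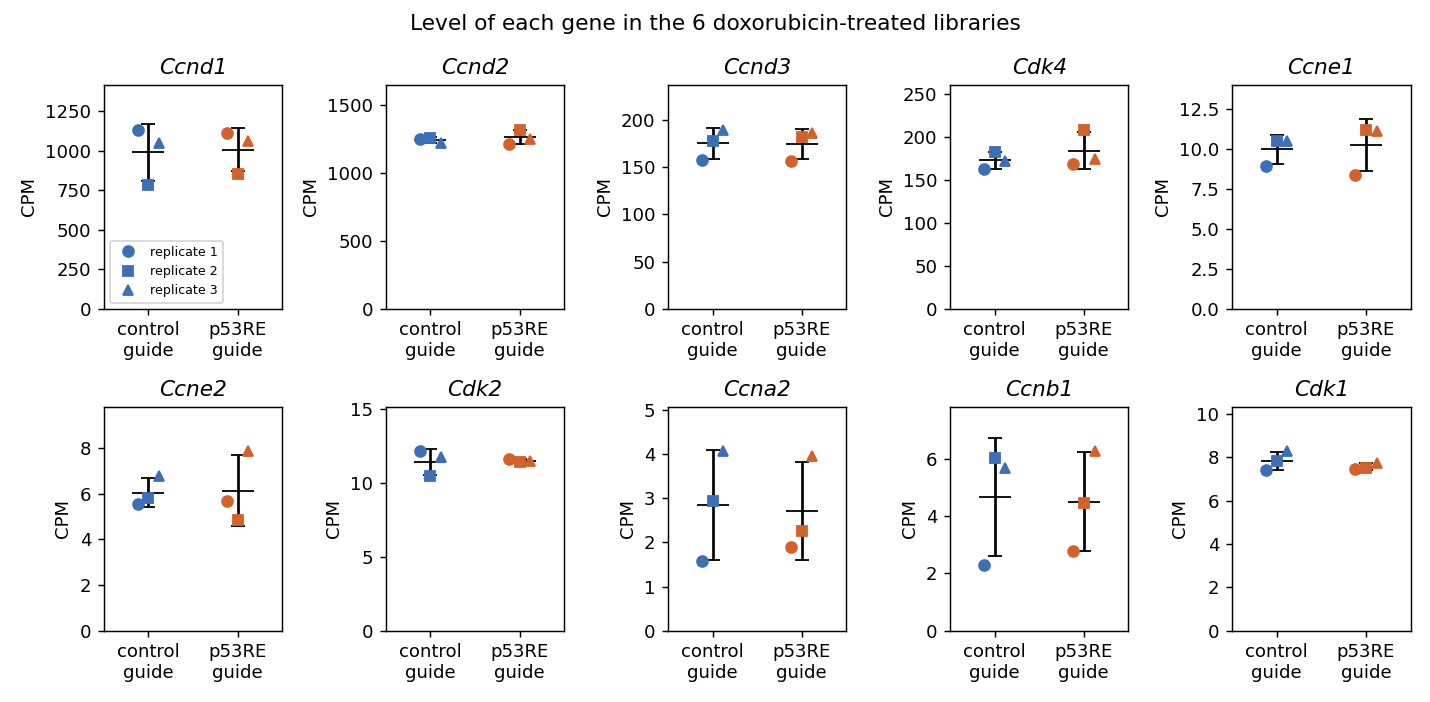
Level of each of the 10 genes in CPM (y axis, linear, from 0) in the 6 doxorubicin-treated libraries, by guide (x axis). Points are libraries with their replicate number as shape, the horizontal line is the mean and the bar the SD of 3. The 2 guides overlap in every panel, and Ccna2 and Ccnb1 are lowest in replicate 1 with both guides.

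The plot of levels by library shows that replicates of 1 guide spread more widely than the guides differ. In the fit without the block this spread entered the error, and the intervals were wide: for Ccnb1 the p53RE level lay between 0.506 and 1.95 times the control level, and for Ccna2 between 0.536 and 1.75 times. With the block the same intervals narrowed to 0.825 to 1.196 times and 0.811 to 1.16 times. For Ccnd1, Ccnd2 and Ccnd3 the blocked intervals stayed between 0.951 and 1.08 times the control level. A change in Cdk2, Ccne1 or Ccne2 of up to 1.12, 1.13 or 1.15 times lay inside the blocked intervals and was not detectable here.

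**Figure D2:**
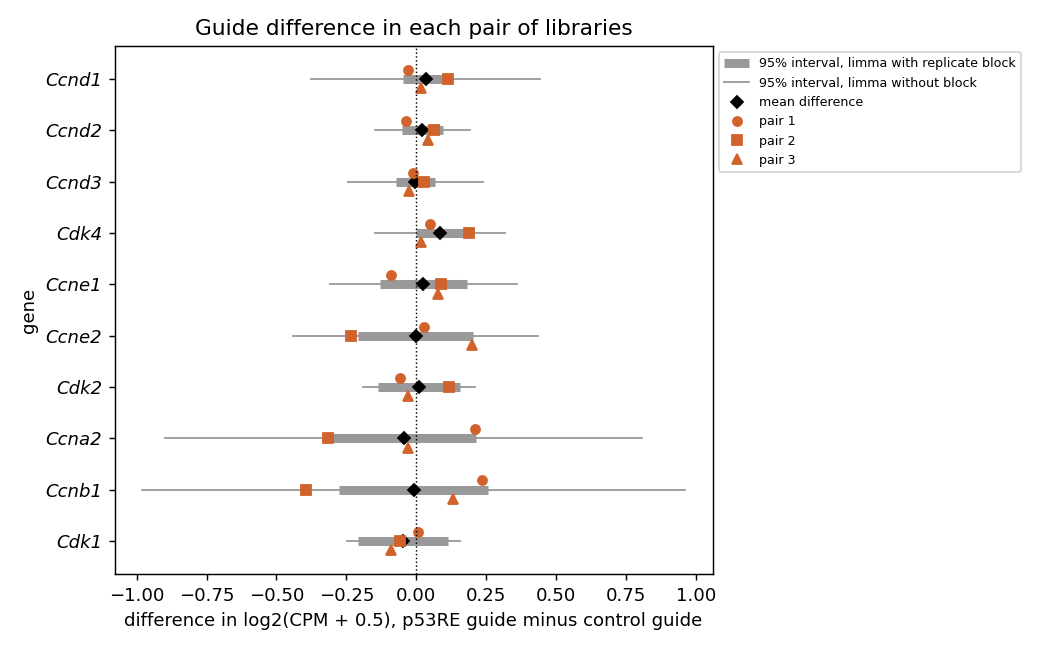
Difference in log2(CPM + 0.5) between the p53RE and control guide (x axis) for each gene (y axis). Black diamonds are means, coloured shapes the 3 pairs with equal replicate number, thin lines the 95% interval of limma without the block and thick lines that with the block. All 10 thin and all 10 thick lines reach 0; for Cdk4 the thick line ends at −0.000140, and its 3 pairs lie above 0.

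Replicate number, which is no condition of the study, separated most of the set. The limma F test of replicate number, in the fit that also held the guide, called 7 of the 10 genes, against 48.6% of all tested genes. These were Ccnd1 (adjusted p = 1.36e-05), Ccnb1 (3.06e-04), Ccna2 (4.24e-04), Ccnd3 (5.36e-04), Cdk4 (0.0038), Ccne1 (0.0135) and Ccne2 (0.0192). Ccnd2 (0.341), Cdk2 (0.439) and Cdk1 (0.638) did not pass. Limma without trend called 5 of the 10 and 4328 of all 14440 genes.

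The replicates did not rank alike for all genes. Averaged over both guides, Ccnb1 stood at 2.55, 5.26 and 5.97 CPM and Ccna2 at 1.74, 2.60 and 4.02 CPM in replicates 1, 2 and 3, both lowest in replicate 1. Ccnd1 went the other way in that replicate, with 1119 CPM in replicate 1, 816 in replicate 2 and 1053 in replicate 3. Ccnd3 (157, 180 and 188 CPM) and Ccne1 (8.65, 10.9 and 10.8 CPM) were lowest in replicate 1. Cdk4 was highest in replicate 2, at 196 CPM against 166 and 173 in replicates 1 and 3. Ccne2 was highest in replicate 3, at 7.33 CPM against 5.64 and 5.33.

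Macrophage markers, some fibroblast markers and the p21 gene Cdkn1a also stood apart in replicate 1. The summed level of 13 measured macrophage markers was 235, 113 and 134 CPM in the control replicates and 370, 108 and 135 CPM in the p53RE replicates. With both guides it was highest in replicate 1, the replicate where Ccna2 and Ccnb1 were lowest. Within replicate 1 this did not hold. Ccna2 and Ccnb1 stood at 1.58 and 2.30 CPM in the control library and, with the higher sum, at 1.90 and 2.80 CPM in the p53RE library. The sum also differed between the guides in replicate 1, at 235 and 370 CPM, but little in replicate 2, at 113 and 108 CPM. Over the group means 12 of the 13 markers were higher and 1 lower with the p53RE guide. Of all 14440 tested genes, 7176 were higher. In 3 of 3 pairs 2 of the 13 were higher and 0 lower, where 14.4% of all tested genes were higher. None of the 13 was called in either fit. Cdkn1a stood at 1483, 1292 and 1226 CPM and at 1564, 1389 and 1234 CPM, also highest in replicate 1. The 11 fibroblast markers summed to 38417 to 39039 CPM in control and 37194 to 38277 CPM in p53RE libraries, and 1 of them, S100a4, fell with the block (log2 difference −0.31, adjusted p = 0.0107). Most of that sum was Fn1 and Col1a1, and 8 of the 11 markers differed between replicate numbers in the F test. Thy1 stood at 190, 429 and 409 CPM in the control and 222, 391 and 371 CPM in the p53RE replicates, lowest in replicate 1. Lum stood at 20.6, 6.82 and 5.35 CPM and at 22.7, 8.27 and 4.21 CPM, highest in replicate 1. Endothelial markers summed to 49.6 to 72.9 CPM over the 6 libraries, muscle markers to 28.5 to 48.1, epithelial markers to 54.8 to 99.99 and neural markers to 202 to 261, and Cdh5, Myod1, Olig2 and Sox10 are not among the genes of the table. Most of each of these sums was 1 gene: Kdr (47.5 to 69.3 CPM), Des (28.3 to 47.8), Krt19 (51.4 to 96.9) and Nes (125 to 173). The sums therefore do not measure how many such cells were present. The part of these in the replicate differences was not tested, and in bulk RNA fewer cells that express a gene and less RNA per cell cannot be told apart.

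**Figure D3:**
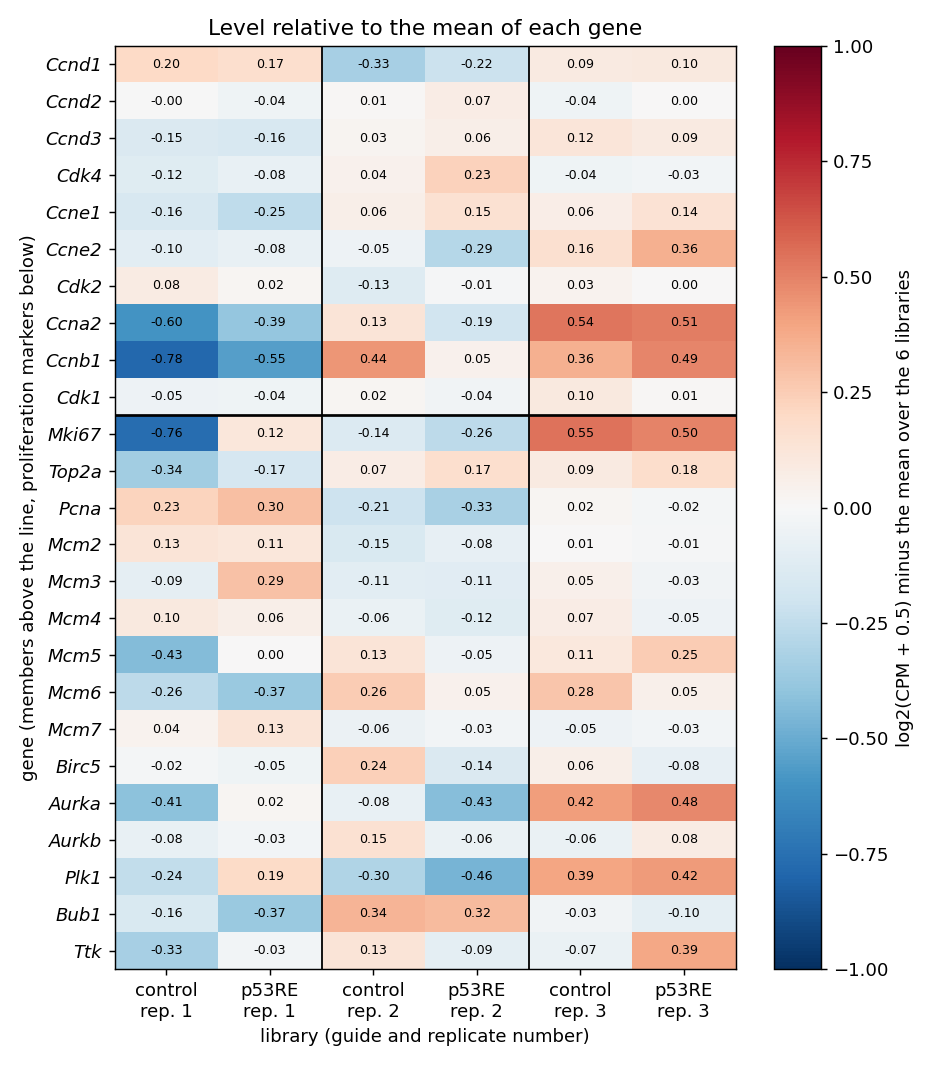
Level of each gene (y axis) in each library (x axis, ordered by replicate number) as log2(CPM + 0.5) minus the gene's mean over the 6 libraries, with colour and number giving the same value. The 10 cyclins and kinases stand above the line and 15 proliferation markers below. Ccnb1 is lowest in control replicate 1 (−0.78), and libraries with equal replicate number have similar colours for Ccnd1, Ccnd3, Ccna2 and Ccnb1.

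Markers of dividing cells did not all share the pattern of Ccna2 and Ccnb1. The 15 markers summed to 161, 151 and 166 CPM in the control replicates and to 173, 145 and 163 CPM in the p53RE replicates. Most of each sum was Mcm7, Pcna, Mcm4 and Mcm2, so the sums say little about the other markers. Each of these genes was highest in replicate 1 with both guides, opposite to Ccna2 and Ccnb1. Pcna stood at 39.75, 29.32 and 34.42 CPM in the control replicates and at 42.01, 26.94 and 33.52 CPM in the p53RE replicates. Top2a, Mcm6 and Bub1 were lowest in replicate 1 with both guides. Mki67, the classical marker of cycling cells, stood at 1.64, 2.81 and 4.82 CPM in the control replicates and at 3.45, 2.54 and 4.65 CPM in the p53RE replicates. Its lowest library was control replicate 1, but the p53RE library of that number lay above that of replicate 2. Of the 14 markers tested, 7 differed between replicate numbers in the F test, and 8 were higher and 6 lower with the p53RE guide, with 0 called in either fit. The smallest blocked p values belonged to Mcm6, a helicase subunit of replication (9.03 and 7.85 CPM, log2 difference −0.18, adjusted p = 0.705), Birc5, which encodes survivin (1.88 and 1.60 CPM, −0.18, adjusted p = 0.804) and Mcm4 (22.6 and 21.5 CPM, −0.07, adjusted p = 0.817).

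Per length the D cyclins and Cdk4 stood apart from the rest. On the scale of CPM per kilobase of annotated exon, averaged over the 6 libraries, Ccnd1 came first with 212 ± 30.6, followed by Ccnd2 with 133 ± 3.95, Cdk4 with 54.9 ± 4.96 and Ccnd3 with 19.9 ± 1.65 (SD, n = 6). Ccne1 stood at 3.80 ± 0.448, and the ranges of these 5 genes did not overlap. Cdk2 (1.85 ± 0.0905), Ccne2 (1.74 ± 0.305) and Cdk1 (1.56 ± 0.0647) followed, and the range of Ccne2, 1.39 to 2.25, covered those of both kinases. Ccnb1 (1.09 ± 0.405) and Ccna2 (0.682 ± 0.259) came last, with overlapping ranges of 0.546 to 1.49 and 0.386 to 0.996. The lengths are those of all annotated exons of a gene, from 2662 bases for Ccne1 to 9409 for Ccnd2, so a gene that uses few of its exons is understated.

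**Figure D4:**
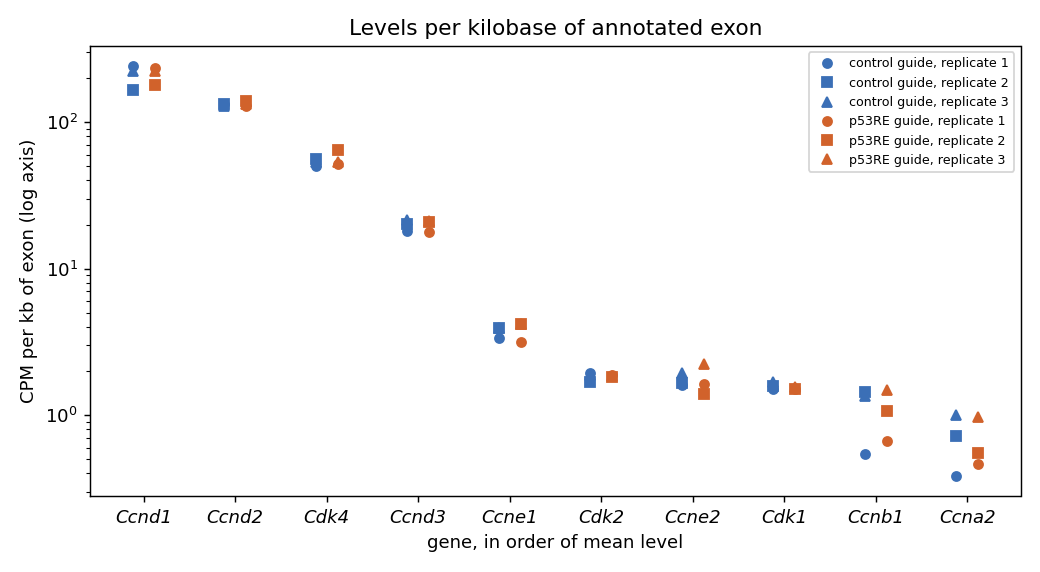
CPM per kilobase of annotated exon (y axis, log scale) for the 10 genes in order of their mean (x axis), with 1 point per library, coloured by guide and shaped by replicate number. Ccnd1, Ccnd2, Cdk4, Ccnd3 and Ccne1 form separate steps from 212 to 3.80, and the other 5 genes overlap with a neighbour.

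In mm10 coordinates (GENCODE M21) Ccnd1 (ENSMUSG00000070348.5) lies on chromosome 7 from 144929931 to 144939925, minus strand, and Ccnd2 (ENSMUSG00000000184.12) on chromosome 6 from 127125162 to 127152193, minus strand. Cdk4 (ENSMUSG00000006728.12) lies on chromosome 10 from 127063534 to 127067920, plus strand, where Cdk2 (128697939 to 128705031, minus strand) and Cdk1 (69335146 to 69352938, minus strand) also lie. Ccnb1 (ENSMUSG00000041431.16) lies on chromosome 13 from 100778650 to 100786570 and Ccna2 (ENSMUSG00000027715.9) on chromosome 3 from 36564865 to 36572150, both on the minus strand. None lies on chromosome 15 with Pvt1 and Myc: Ccne1 is on chromosome 7, Ccne2 on chromosome 4 and Ccnd3 on chromosome 17. Besides Cdk4, exons of Ccnd1, Ccnd2, Ccnd3, Ccne2 and Ccna2 share bases with an opposite-strand gene, and Ccnd3 has a pseudogene 96.3% identical over 881 bases. Ccna2 shares 431 bases with Exosc9 (mean 54.4 CPM) and Ccne2 shares 474 with Ints8 (mean 41.6 CPM). Both partners stood above the member. If strands were not separated in counting, reads on the shared bases could have been dropped as ambiguous or counted for either gene. Which of these applied is not given, so the direction of any error in Ccna2 and Ccne2 is not known.

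The other cyclins of the table were as even between the guides as the members. Of 16 tested, 8 were higher and 8 lower, with a median log2 difference of −0.00 and 0 called in either fit. Ccng1, a p53 target that encodes cyclin G1, averaged 1551 CPM in control and 1482 CPM in p53RE libraries (log2 difference −0.06, blocked limma adjusted p = 0.748). Ccnt2 and Ccnk, partners of the kinases that act on RNA polymerase II, stood at 30.7 and 32.8 CPM (0.10, adjusted p = 0.738) and at 36.7 and 38.7 CPM (0.08, adjusted p = 0.758). Among 15 other cyclin-dependent kinases tested, 10 were higher and 5 lower, with a median of 0.02 and 0 called. The smallest p belonged to Cdk8, of the Mediator complex (33.3 and 35.6 CPM, 0.09, adjusted p = 0.753), Cdk10 (24.4 and 25.8 CPM, 0.08, adjusted p = 0.811) and Cdk12, a kinase of RNA polymerase II (43.5 and 45.0 CPM, 0.05, adjusted p = 0.846).

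Cdk6, the other kinase of the D cyclins, is named after its values were seen. It stood at 18.4, 29.3 and 35.5 CPM in the control replicates and at 16.6, 30.1 and 36.7 CPM in the p53RE replicates. It was lowest in replicate 1 and highest in replicate 3 with both guides, where Cdk4 was highest in replicate 2, and its log2 difference between guides was −0.02 (blocked limma adjusted p = 0.967).

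Regulators of the complexes were likewise split. Of 20 inhibitors, phosphatases, kinases and degradation factors, 10 were higher and 10 lower, with a median log2 difference of −0.01 and 0 called in either fit. Skp2, which marks the inhibitor p27 for degradation, stood at 4.87 and 5.68 CPM (0.20, blocked limma adjusted p = 0.725). Wee1, the kinase that restrains Cdk1, stood at 6.19 and 5.38 CPM (−0.18, adjusted p = 0.738), and the p21 gene Cdkn1a at 1334 and 1395 CPM (0.06, adjusted p = 0.756). Of 12 retinoblastoma and E2F genes, 5 were higher and 7 lower, with a median of −0.01 and 0 called. They included the repressor E2f4 (43.2 and 46.1 CPM, 0.09, adjusted p = 0.726), the pocket protein gene Rbl2 (68.9 and 65.0 CPM, −0.08, adjusted p = 0.738) and the activator E2f1 (52.8 and 50.1 CPM, −0.08, adjusted p = 0.797).

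For the 3 members that varied most over the libraries, the genes of most similar pattern were sought among the 10399 genes with a mean of at least 5 CPM, as the root mean square difference of centred log2 values over the 6 libraries. Nearest to Ccnb1 were Dusp9 (0.0534), Cxadr (0.0704) and Pgm2l1 (0.0751). Dusp9, a phosphatase of MAP kinases, stood at 33.2, 81.7 and 78.0 CPM in the control replicates and at 36.9, 59.5 and 79.8 CPM in the p53RE replicates. Nearest to Ccna2 were F2rl1 (0.0484), Slc5a6 (0.0603) and Dgat2 (0.0780), and nearest to Ccne2 were Itpr2 (0.0414), Hspa4l (0.0462) and Elovl4 (0.0501). Over 6 libraries that fall into 3 pairs such likeness is a description of the replicate pattern.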

How the data were processed

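RNA was polyadenylated and libraries were strand-specific, per the labels' protocols. The submitters' processing notes name HTSeq 0.6.1, StringTie 1.2.4, edgeR 3.22.3, TopHat2 2.0.14 and the build mm10, without role or order. The deposited values are CPM per gene and library, per the file headers. The authors' deposited table also holds a log2 fold change and mean log2 CPM, and a p-value and false discovery rate, per the file headers. The 2 entries without a gene (ambiguous, 0.543% to 1.58% of deposited CPM, and no feature, 8.06% to 8.94%) were left out, and the 6 per-sample pseudo-count columns were not used. Every CPM value came out whole within 0.01 reads (100% of values), and these reads were used for edgeR and DESeq2.

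Computed here was limma 3.58.1 (R 4.3.3; trend, robust) on log2(CPM + 0.5) for the 14440 genes that reached 0.5 CPM in 3 or more libraries, adjusted by Benjamini-Hochberg over all of them, threshold 0.05. Differences are the p53RE guide minus the control guide, and understate changes of low genes. Alternatives were edgeR 4.0.16 and DESeq2 1.42.0 on the recovered reads, other scalings, filters and pseudocounts, and each library left out. Deviations from group means correlated at 0.869, 0.739 and 0.817 across genes for equal replicate numbers and at most at 0.203 for others, so the numbers pair the libraries by the data, not by a label. Pseudogene copies were sought with blastn 2.17.0. By rule the text names all members, Pvt1 and Myc, in each related list the genes of that list called in either fit and the 3 with the smallest blocked p, and the 3 genes nearest in pattern to the 3 most variable members. Mki67, Cdk6, Tspan31, Fn1, Col1a1, Thy1, Lum, Lamp1 and Mfsd1 are named outside that rule, after their values were seen. So are Mcm2, Mcm7, Pcna, Top2a, Bub1, Kdr, Des, Krt19, Nes, Exosc9 and Ints8. Members and lists were chosen with earlier results of these data known.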

Additional observations from a re-analysis of the deposited data

How the results depend on the processing

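No cyclin or kinase of the set was called for the guide under any alternative run, and the lowest adjusted p was 0.607 (Ccnb1, replicate block without replicate 2). Over all genes the count of 0 became 1 with DESeq2, 5 with the replicate block, and, with the block, 5 with edgeR, 6 with DESeq2, 5 with quantile normalization, 4 with median centring and 8, 160 and 9 without replicate 1, 2 or 3. The genes that differ between replicate numbers fell from 7022 to 4328 without trend and ranged from 3068 to 7027 with 1 replicate left out, 3068 without replicate 1. The members among them went from 7 to between 4 and 6 with 1 replicate left out, with 4 (Ccnd1, Ccna2, Ccne2 and Cdk4) without replicate 1. The sign of differences near 0 changed: Ccnd3 to 0.0111 with quantile normalization, with and without the replicate block, and Ccne2 to 0.0188 with edgeR, 0.0193 with DESeq2 and 0.00596 with edgeR and the block. With the replicate block and without replicate 2 the differences were −0.00761 for Ccnd1, −0.00574 for Ccne1, 0.114 for Ccne2, 0.0911 for Ccna2, 0.183 for Ccnb1 and −0.0422 for Cdk2, and for Ccnd3 they were 0.00112 without replicate 1 and 0.00931 without replicate 3. With 1 library left out and no block, log2 differences ranged from −0.12 to 0.15 (Ccnd1), −0.00913 to 0.0487 (Ccnd2), −0.0766 to 0.0750 (Ccnd3), −0.0494 to 0.16 (Ccne1), −0.18 to 0.14 (Ccne2), −0.36 to 0.21 (Ccna2), −0.40 to 0.26 (Ccnb1), −0.0497 to 0.0532 (Cdk2), −0.00982 to 0.14 (Cdk4) and −0.08 to −0.01 (Cdk1); the cause was not tested. Ccna2 and Ccnb1 were not tested at a mean of at least 5 CPM, which both lie under. Depth limits Ccna2 most, at 91 reads in its lowest library.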

Other observations

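In the authors' deposited table none of the 10 cyclins and kinases had an unadjusted p under 0.05, and the false discovery rate was 1 for each. The p-values there ran from 0.546 for Cdk4 to 0.985 for Ccnd3.

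Myc binds CACGTG, and the letters were counted in the promoter windows of all genes after the Cdk4 promoter had been read. Whether Myc bound any of these promoters, or had a part in any of these differences, was not tested. Of the 1026 tested genes with at least 1 CACGTG, 52.0% were higher with the p53RE guide and 16.9% were higher in 3 of 3 pairs, against 50.0% and 14.6% of the 10504 tested genes with any promoter entry. Lower in 3 of 3 pairs were 14.42% of the 1026 genes and 13.99% of the 10504. The median log2 difference was 0.00371 for the 1026 genes, which are themselves among the 10504. Of the 95 genes with at least 2, 59.0% were higher, and 21.1% were higher and 15.8% lower in 3 of 3 pairs, with a median of 0.00678 and, in pair 2 alone, of −0.0108. Of the 13 genes with at least 3, 6 were higher and 7 lower, with a median of −0.00771. The 3 tested genes with 4 or more were Cdk4, Lamp1 and Mfsd1. Lamp1, a lysosomal membrane protein gene, averaged 2128 CPM in control and 2065 CPM in p53RE libraries, and Mfsd1, a lysosomal transporter gene, at 298 and 290.2 CPM. Both were lower in 3 of 3 pairs (log2 differences of −0.04 each), where Cdk4 was higher in 3 of 3, and none of the 3 passed the blocked limma fit (adjusted p = 0.831, 0.841 and 0.738 in the order Lamp1, Mfsd1, Cdk4).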
